A study of Mus musculus with 2 samples.

Results

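Hmox1, 6 antioxidant genes that the transcription factor NRF2 is known to switch on and the metallothioneins Mt1 and Mt2 were followed through the cells of the mouse uterus on gestational day 4. They are 9 of the 31053 genes in the count tables, namely Hmox1, Nqo1, Gclm, Gclc, Txnrd1, Srxn1, Slc7a11, Mt1 and Mt2. The group was chosen because Hmox1 and Mt1 stood out as strongly raised in the d/d library, so the values of the 9 genes between the genotypes are given below as a description and carry no test. Whole uterus was measured by droplet single-cell RNA sequencing in 1 library labelled Mettl14 d/d and 1 library labelled Mettl14 f/f. The gene symbol with f/f is the usual notation for a gene flanked by recombination sites on both alleles, and d/d for the same gene after deletion. METTL14, its protein, is the RNA-binding partner of METTL3 in the writer complex of N6-methyladenosine. The labels name neither what drove the deletion, and so in which cells, nor the number of mice behind a library, and with 1 library per genotype a difference between the libraries cannot be told apart from a difference between the genotypes.

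NRF2, encoded by Nfe2l2, is held at a low level by KEAP1, which directs it to degradation, and is released when electrophiles or oxidants modify KEAP1. It then binds antioxidant response elements as a partner of small MAF proteins and raises genes of glutathione synthesis, thioredoxin reduction and quinone detoxification, while the heme-sensing repressor BACH1 occupies many of the same elements and keeps Hmox1 low until heme displaces it. Metallothioneins are small cysteine-rich proteins that bind zinc and copper, and their genes respond to zinc through the factor MTF1 and also to glucocorticoids. Heme oxygenase 1 is known to be high in macrophages that take up red cells, and metallothioneins are present in many epithelia.

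The d/d library held 6661 cell barcodes and 44745031 transcript counts (unique molecular identifiers, UMIs), the f/f library 8164 barcodes and 55080123 UMIs. Filtering kept 5977 d/d and 7095 f/f cells, whose median depth was 5217 UMIs in d/d and 6085 UMIs in f/f. The libraries had 8 barcodes in common. Cells were clustered and named from marker genes, so the class names are rebuilt here and are written "-like". Detection of a marker does not by itself set a class apart, since stroma-like cells also had every marker of the epithelium and smooth muscle lists. In 7 classes both libraries had 100 cells or more. In each of these 7 classes every marker of the class's own list was detected in d/d and in f/f. These were stroma-like cells (1705 d/d and 4598 f/f), epithelium-like cells (144 and 178), smooth muscle-like cells (1478 and 445), pericyte-like cells (1193 and 380), blood endothelium-like cells (604 and 492), macrophage-like cells (294 and 231) and dendritic-like cells (151 and 168). Mettl14 itself was at 5.53 CPM, the gene's UMIs scaled to sequencing depth, in all d/d cells against 15.5 CPM in all f/f cells, a ratio of 0.36 with a 95% interval from 0.31 to 0.42. The ratio was 0.17 in stroma-like, 0.25 in epithelium-like, 0.13 in smooth muscle-like and 0.32 in pericyte-like cells. In blood endothelium-like cells it was 0.96, with an interval from 0.71 to 1.31 and in macrophage-like cells it was 0.43, with an interval from 0.17 to 1.12. Dendritic-like cells had 4 Mettl14 UMIs in d/d and 3 in f/f, at 5.15 CPM each. Mettl14 was thus not measurably lower in d/d blood endothelium-like cells. Both myeloid classes had too few Mettl14 UMIs to tell, with 10 in d/d and 11 in f/f macrophage-like cells. How Mettl14 in a class relates to the differences below was not tested. All intervals here are exact and cover counting error only.

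Hmox1 encodes heme oxygenase 1, which opens the heme ring and releases iron, carbon monoxide and biliverdin. The gene (ENSMUSG00000005413) lies on the plus strand of chromosome 8, from base 75093621 to 75100589 of mm10. It was at 201 CPM in all d/d cells (8102 UMIs) and 13.3 CPM in all f/f cells (646 UMIs), which is 15.1 times as much in d/d (interval 14.0 to 16.4). With the f/f shares of the classes applied to the class levels of both libraries, the difference was 3.62 on the log2 scale, against 3.92 as measured.

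Blood endothelium-like cells held the largest difference of the 7 classes. Hmox1 was at 781 CPM (3716 UMIs) in their d/d cells and 27.5 CPM (126 UMIs) in their f/f cells, a ratio of 28.4 (interval 23.8 to 34.2). These cells made up 45.9% of all Hmox1 UMIs in the d/d library and 19.5% in the f/f library. The larger part of the class, led by Selp, Aplnr and Plvap, had 793 CPM in d/d and 29.3 CPM in f/f, and the part led by Gja5, Sema3g and Bmx, genes known from arteries, had 708 CPM (469 UMIs in 143 cells) in d/d and 3.18 CPM (1 UMI in 43 cells) in f/f. The ratio in the Gja5 part was 223, but with a single f/f UMI its interval ran from 39.8 to 8817. Both parts of the endothelium therefore carried the transcript at a like level in d/d.

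Cells of the d/d endothelium were unequal. With every cell thinned to 2000 UMIs, 40.8% of d/d and 6.12% of f/f blood endothelium-like cells had an Hmox1 UMI, with 80 d/d and 51 f/f cells left out as too shallow, against 58.1% of d/d and 19.5% of f/f cells before thinning. The d/d cells had 18 Hmox1 UMIs at most and 5 at the 90th percentile, while the median d/d cell had none. No f/f cell had more than 1. The 9 macrophage markers, all detected, summed to 32.1 CPM in d/d and 74.7 CPM in f/f blood endothelium-like cells.

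Macrophage-like cells reached the same height in d/d from a higher f/f level. Hmox1 was at 786 CPM (1109 UMIs) in d/d and 137 CPM (92 UMIs) in f/f macrophage-like cells, a ratio of 5.75 (interval 4.64 to 7.19). After thinning, 61.2% of d/d and 23.3% of f/f macrophage-like cells had an Hmox1 UMI, against 75.2% of d/d and 27.3% of f/f cells unthinned. In f/f they were the class with the highest level, while in d/d the intervals of macrophage-like and blood endothelium-like cells overlapped.

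Dendritic-like cells had 385 CPM in d/d and 37.7 CPM in f/f, a ratio of 10.2 (interval 6.62 to 16.5). They fell into a part led by Cd209a, with 532 CPM in d/d and 57.0 CPM in f/f, and a part led by Xcr1 and Clec9a, markers of the cross-presenting type, with 130 CPM in d/d and 15.0 CPM in f/f. The Cd209a part was thus the higher one in each library, and both parts were higher in d/d. Lymphatic endothelium-like cells, with 61 d/d and 81 f/f cells too few for the comparison, had 358 CPM in d/d and 35.5 CPM in f/f.

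Hmox1 was lower in the remaining classes, and higher in d/d in each of them. Epithelium-like cells had 116 CPM in d/d and 13.9 CPM in f/f, a ratio of 8.35 (interval 5.77 to 12.5). Smooth muscle-like cells had 114 CPM in d/d and 10.3 CPM in f/f, a ratio of 11.1 (interval 7.14 to 18.2). Stroma-like cells had 80.3 CPM in d/d and 9.03 CPM in f/f, a ratio of 8.89 (interval 7.81 to 10.1). Pericyte-like cells had 35.4 CPM in d/d and 11.4 CPM in f/f, the smallest ratio of the 7 whole classes at 3.10 (interval 2.02 to 4.96). The makeup of the pericyte-like class differed, and within its largest cluster the ratio was 4.21 (interval 2.42 to 7.91), at 44.5 CPM in d/d and 10.6 CPM in f/f. In f/f the epithelium-, smooth muscle-, stroma- and pericyte-like levels could not be ordered within their intervals. In d/d the order ran from epithelium-like and smooth muscle-like cells, whose intervals overlapped, through stroma-like to pericyte-like cells.

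Stroma-like cells of the libraries lay in different clusters, with most d/d cells (1121) in a cluster that held 14 f/f cells and most f/f cells in 3 others. Hmox1 was at 83.3 CPM in that d/d cluster and between 7.4 and 9.8 CPM in the 3 f/f ones. The cluster led by Clec3b and Adh1 held stroma-like cells of d/d and of f/f alike, and there it was at 89.9 CPM in d/d and 22.6 CPM in f/f, a log2 difference of 1.99 instead of 3.15 for the whole class. The f/f cells of that cluster thus stood above the other f/f stroma-like cells. A further stromal cluster, with 50 d/d and 356 f/f cells, was lower in d/d than these. Hmox1 was there at 17.4 CPM (12 UMIs) in d/d and 4.97 CPM (19 UMIs) in f/f, a ratio of 3.50 (interval 1.55 to 7.59).

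Lymphoid cells, which should lack the transcript, were taken as background, with all cells at the same depth of 2000 UMIs. Hmox1 was seen in 2.38% of the 210 thinned d/d T-like cells (interval 0.78 to 5.47%) and, unthinned, in 0 of 37 d/d NK- or innate lymphoid-like cells, which allows a share of up to 8.11%. In f/f it was seen in 1.09% of thinned NK- or innate lymphoid-like cells (interval 0.13 to 3.89%). Pericyte-like cells had an Hmox1 UMI in 5.04% of d/d (interval 3.82 to 6.51%) and 1.15% of f/f cells, so the f/f share of pericytes lay at the lymphoid level and the d/d share overlapped that of d/d T-like cells. The d/d shares of stroma-like (11.3%), smooth muscle-like (12.2%) and epithelium-like cells (16.3%) were above it, against f/f shares of 2.07%, 0.52% and 5.29%, of which those of stroma-like and smooth muscle-like cells lay within the lymphoid interval. By level, d/d pericyte-like cells stood above d/d T-like cells, at 10.8 CPM (interval 4.65 to 21.2), and f/f stroma-like cells above f/f NK- or innate lymphoid-like cells, at 2.37 CPM (interval 0.49 to 6.93). Before thinning, these 3 shares were 27.9%, 22.7% and 53.5% in d/d, against 5.94%, 3.82% and 13.5% in f/f.

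**Figure D1:**
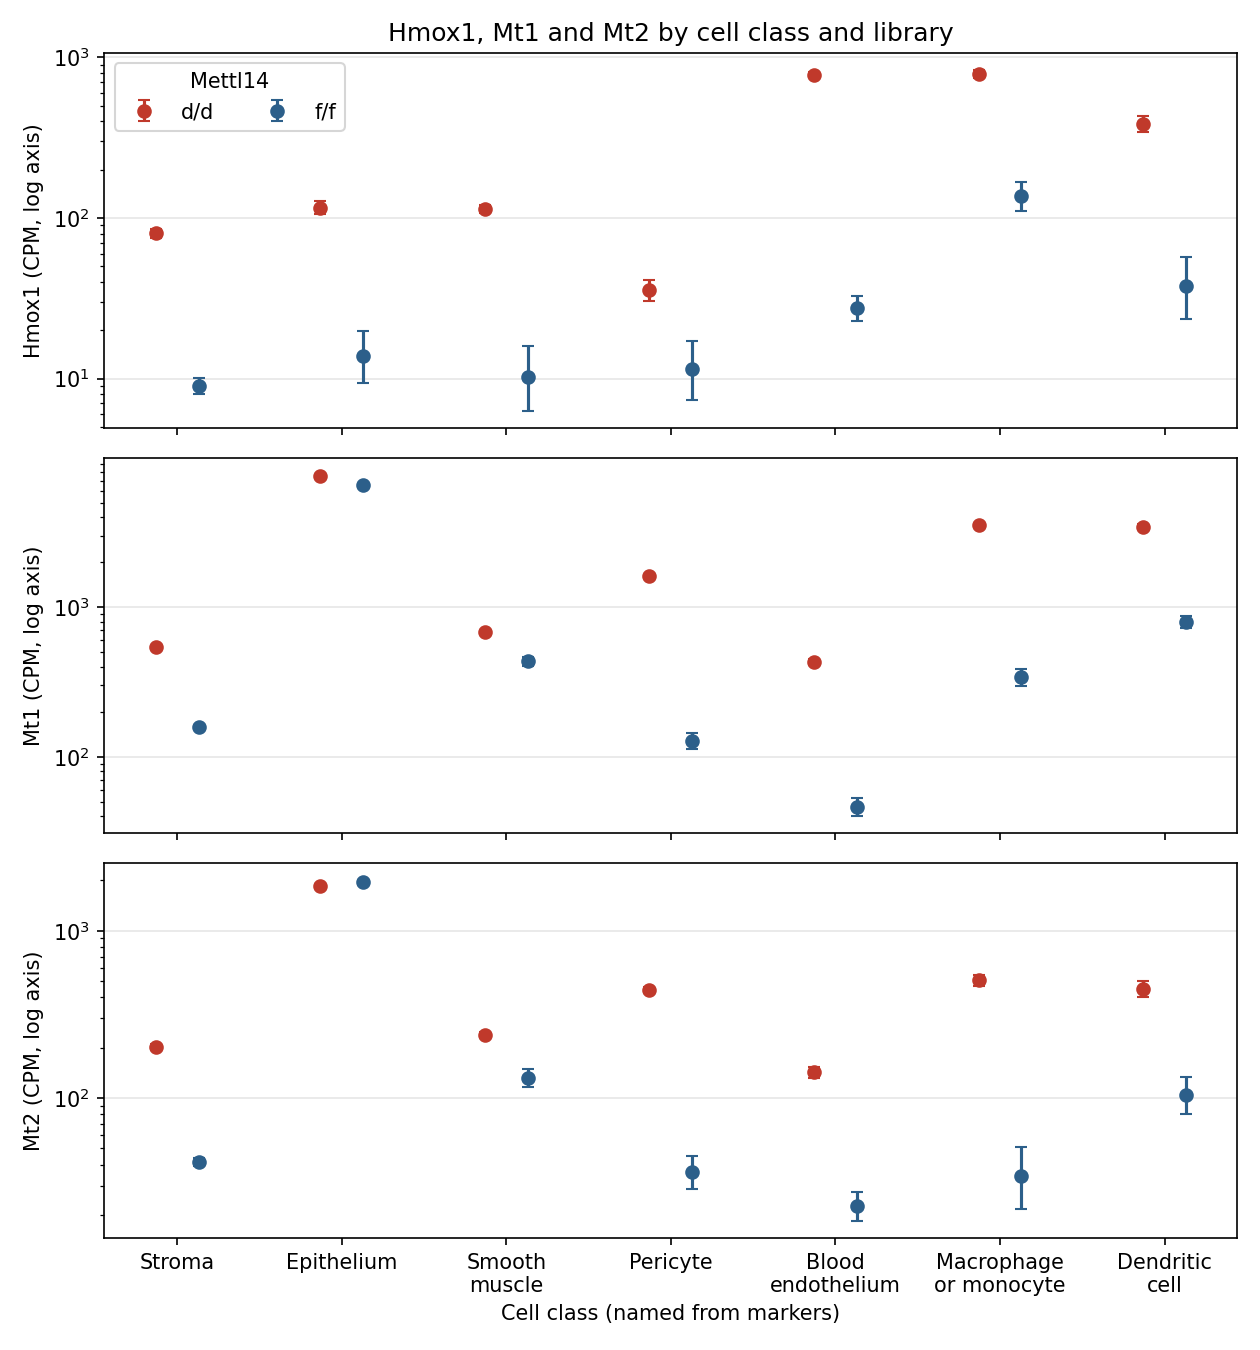
Levels of Hmox1, Mt1 and Mt2 in CPM on a log axis, by cell class and library. Bars are exact 95% Poisson intervals that cover counting error only, from 1 library per genotype. Hmox1 is higher in d/d in all 7 classes and reaches 781 CPM in blood endothelium-like and 786 CPM in macrophage-like cells of d/d.

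Mt1 and Mt2 encode the general metallothioneins. Both genes lie on the plus strand of chromosome 8 of mm10, Mt2 (ENSMUSG00000031762) from base 94172664 to 94173568 and Mt1 (ENSMUSG00000031765) from 94179082 to 94180327, with 5514 bases between them. The 250 bases before each RefSeq start (build GRCm38.p6) are shown because metal response elements, which MTF1 binds, are known from the promoters of metallothionein genes. They need not all lie in the printed bases. Capitals mark matches to the core letters TGCACNC or TGCGCNC on either strand. Mt1 is chr8:94178839-94179088 and Mt2 chr8:94172368-94172617, both on the plus strand.
Mt1: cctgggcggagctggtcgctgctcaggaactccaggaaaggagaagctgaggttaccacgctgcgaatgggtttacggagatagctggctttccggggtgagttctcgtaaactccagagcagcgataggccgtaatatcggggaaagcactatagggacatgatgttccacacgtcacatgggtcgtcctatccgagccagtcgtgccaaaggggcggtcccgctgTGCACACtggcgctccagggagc
Mt2: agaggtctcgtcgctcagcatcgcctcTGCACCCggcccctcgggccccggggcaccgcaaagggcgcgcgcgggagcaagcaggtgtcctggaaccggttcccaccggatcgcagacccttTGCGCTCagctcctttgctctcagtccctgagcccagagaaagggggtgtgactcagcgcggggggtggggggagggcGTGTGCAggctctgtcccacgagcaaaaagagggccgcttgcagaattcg
In the window of 300 bases, of which 250 lie before and 50 after the start, Mt1 had 3 core matches and Mt2 had 4, of which 1 and 3 lie in the bases printed. Such a match was found in 25.7% of the 32851 RefSeq promoter windows, and 3 or more in 1.97%. Mt2 also had the antioxidant response element core TGACNNNGC once, as TGACTCAGC beginning 79 bases before the start, letters that overlap the AP-1 site TGACTCA. The Mt1 window of 300 bases had no such match, and bases outside the windows were not searched for either gene. A match describes letters and not a bound site.

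Mt1 was the more abundant transcript, at 1679.8 CPM in all d/d and 486 CPM in all f/f cells, and Mt2 followed it at 438 CPM in d/d and 140 CPM in f/f. Unlike Hmox1, the pair lost much of its difference over all cells when the f/f class shares were applied to both libraries, with log2 differences of 1.08 for Mt1 and 1.14 for Mt2 against 1.79 and 1.65 as measured. In d/d the order of Mt1 levels ran from epithelium-like cells through macrophage-like and dendritic-like cells, whose intervals overlapped, to pericyte-like, smooth muscle-like, stroma-like and last blood endothelium-like cells. In f/f it ran from epithelium-like through dendritic-like, smooth muscle-like, macrophage-like, stroma-like and pericyte-like to blood endothelium-like cells, and no neighbours among these 7 overlapped.

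Pericyte-like cells had the largest Mt1 ratio of the 7 whole classes, but the makeup of this class differed between the libraries. Mt1 was at 1607 CPM in d/d and 128 CPM in f/f pericyte-like cells, a ratio of 12.6 (interval 11.1 to 14.3). Mt2 was at 446 CPM in d/d and 36.2 CPM in f/f there, a ratio of 12.3. Within the largest cluster of the class the Mt1 ratio was 11.8 (interval 10.0 to 13.9). In a second cluster, with 443 d/d and 47 f/f cells, it was 6.24 (interval 4.88 to 8.12), under the macrophage-like ratio of 10.3. Smooth muscle markers summed to 8516 CPM in d/d and 5796 CPM in f/f pericyte-like cells. Pericyte markers summed to 5929 CPM in d/d and 10929 CPM in f/f. Of thinned pericyte-like cells, 61.4% of d/d and 16.1% of f/f had an Mt1 UMI (69.9% and 35.5% unthinned), and the highest d/d cell had 59 of its 2000 UMIs from this gene. The interval of the f/f pericyte-like level overlapped that of the 129 CPM in f/f NK- or innate lymphoid-like cells.

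In the myeloid classes the metallothioneins were higher in d/d as well. Macrophage-like cells had 3528 CPM of Mt1 in d/d and 342 CPM in f/f, a ratio of 10.3 (interval 9.04 to 11.8). Their Mt2 was at 506 CPM in d/d and 34.2 CPM in f/f, a ratio of 14.8 (interval 9.79 to 23.5). Nearly all d/d macrophage-like cells, 93.9% after thinning and 92.9% before, had an Mt1 UMI, against 37.9% and 43.3% of f/f. Dendritic-like cells had 3442 CPM of Mt1 in d/d and 796 CPM in f/f, a ratio of 4.33. Their part led by Xcr1 and Clec9a had 3782 CPM in d/d and 120 CPM in f/f, and the Cd209a part, which had more Hmox1, had 3246 CPM of Mt1 in d/d and 1369 CPM in f/f.

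Blood endothelium-like cells had 429 CPM of Mt1 in d/d and 46.1 CPM in f/f, a ratio of 9.30, and 143 CPM of Mt2 in d/d and 22.5 CPM in f/f, a ratio of 6.35. Stroma-like cells had 540 CPM of Mt1 in d/d and 158 CPM in f/f, a ratio of 3.42, and 203 CPM of Mt2 in d/d and 41.4 CPM in f/f, a ratio of 4.90. Their shared Clec3b and Adh1 cluster differed less, by 0.88 for Mt1 and 0.95 for Mt2 on the log2 scale. T-like cells had a comparable level in d/d, at 461 CPM of Mt1, and 65.7 CPM in f/f, there on 6 UMIs in 52 cells. The f/f T-like class was mixed, with mast cell markers at 2408 CPM beside T cell markers at 2485 CPM. In d/d T-like cells the mast cell markers summed to 31.0 CPM. An Mt1 UMI was in 29.0% of thinned d/d blood endothelium-like cells, in 31.9% of thinned d/d T-like cells and in 12.7% of thinned d/d lymphatic endothelium-like cells, and the part of free RNA in these values was not tested. Mt2 was in 15.65% of thinned d/d blood endothelium-like cells and 9.05% of d/d T-like cells, with overlapping intervals.

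Epithelium-like cells carried the highest metallothionein levels and showed no difference of 1.5-fold or more, the size used here to call a difference. Mt1 was at 7553 CPM in d/d and 6576 CPM in f/f, a ratio of 1.15, and Mt2 at 1859 CPM in d/d and 1951 CPM in f/f, a ratio of 0.95. The f/f mean covered 2 unlike groups of cells, with 1988 CPM of Mt1 in the 105 cells led by Htr1b, Spink1 and Ttr and 11465 CPM in the 73 cells led by Coch, Lrp2 and Wnt7a. The 128 cells of the main d/d part, led by Serpinb11, Pthlh and Pigr, had 7722 CPM, between the f/f groups. Which f/f group is the counterpart of the d/d cells was not tested, and the epithelial ratio turns on it, since against the Htr1b group's cluster alone it was 3.80. Mt2 showed the same order, with 1889 CPM in the d/d part, 953 CPM in the Htr1b group and 3014 CPM in the Coch group. Hmox1, at 102 CPM in the d/d part, was above both f/f groups, at 9.86 and 18.2 CPM.

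Smooth muscle-like cells had a small metallothionein difference, with Mt1 at 682 CPM in d/d and 434 CPM in f/f (ratio 1.57) and Mt2 at 239 CPM in d/d and 133 CPM in f/f (ratio 1.80). It sat in 1 of their 2 clusters, with Mt1 at 863 CPM in d/d and 441 CPM in f/f, while the other had 456 CPM in d/d and 417 CPM in f/f. Hmox1 was higher in d/d in both clusters, at 101 CPM against 11.6 CPM in f/f and at 129 CPM against 7.01 CPM in f/f.

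Mt1 outnumbered Mt2 in every compared class of both libraries. There were between 2.66 and 7.66 Mt1 UMIs per Mt2 UMI in the d/d classes and between 2.05 and 10.0 in the f/f classes. Macrophage-like cells had 6.97 in d/d and 10.0 in f/f, and pericyte-like cells 3.61 in d/d and 3.53 in f/f. All 110 thinned d/d macrophage-like cells with an Mt2 UMI also had an Mt1 UMI.

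**Figure D2:**
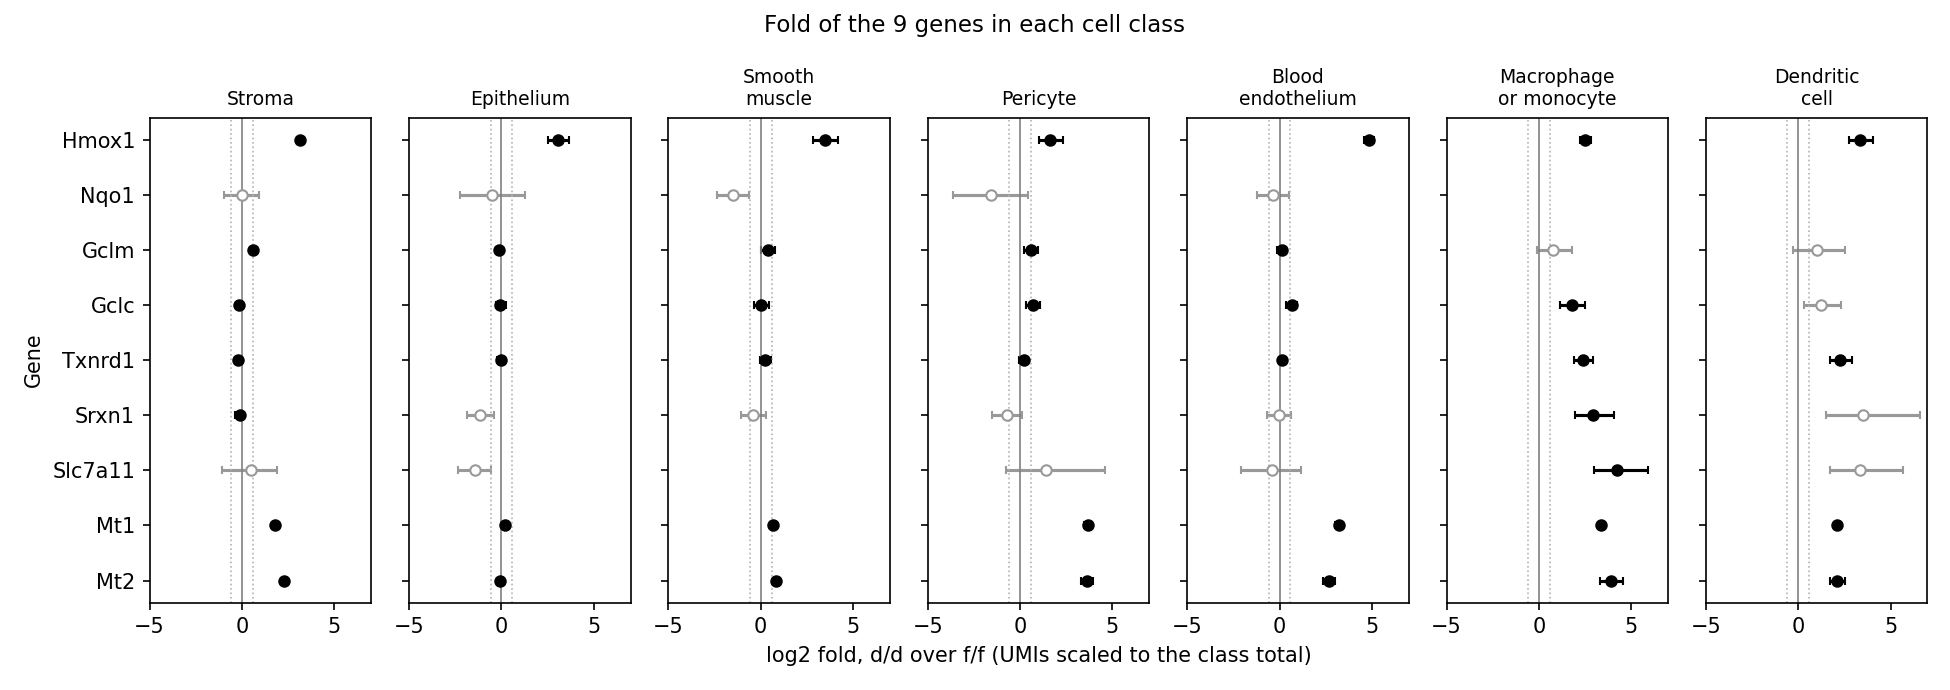
Log2 ratio of d/d to f/f for each gene and class, with exact 95% intervals for counting error; the dotted lines mark 1.5-fold, open grey points have under 50 UMIs in the higher library, and no point is drawn where a library had 0 UMIs (Slc7a11 in smooth muscle-like, Nqo1 in macrophage-like and dendritic-like cells). Hmox1 lies right of 1.5-fold in all 7 classes, and Gclc, Txnrd1, Srxn1 and Slc7a11 lie right of it in macrophage-like cells.

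The remaining 6 genes carry out the enzymatic side of the NRF2 response. Of these, 4, Gclc, Txnrd1, Srxn1 and Slc7a11, had their largest ratios in the myeloid cells. So did Gclm, but on under 50 UMIs in each library there. Gclc and Gclm encode the catalytic and the modifier subunit of glutamate-cysteine ligase, the rate-limiting enzyme of glutathione synthesis. Gclc was at 111 CPM (157 UMIs) in d/d and 32.7 CPM (22 UMIs) in f/f macrophage-like cells, a ratio of 3.40 (interval 2.17 to 5.59). It was at 51.7 CPM in d/d and 31.9 CPM in f/f pericyte-like cells (ratio 1.62) and at 48.3 CPM in d/d and 30.6 CPM in f/f blood endothelium-like cells (ratio 1.58). Stroma-like cells had 32.4 CPM in d/d and 36.4 CPM in f/f, smooth muscle-like cells 35.5 CPM in d/d and 34.9 CPM in f/f, and epithelium-like cells 78.4 CPM in d/d and 80.9 CPM in f/f, so these 3 classes had no Gclc difference past 1.5-fold.

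Whether the modifier subunit followed in the myeloid classes could not be told, since it had under 50 UMIs in each library there. Gclm was highest in epithelium-like cells, at 167 CPM in d/d and 180 CPM in f/f, and in blood endothelium-like cells, at 69.7 CPM in d/d and 64.2 CPM in f/f. The epithelial mean again covered unlike f/f cells, with 171 CPM in the main d/d part, 258 CPM in the Htr1b group of f/f and 97.4 CPM in the Coch group of f/f. Against the Htr1b group's cluster alone the epithelial ratio was 0.65 (interval 0.56 to 0.74), which is past 1.5-fold lower in d/d. Over whole classes, it differed past 1.5-fold in stroma-like cells alone among the 5 classes that reached 50 UMIs in d/d or f/f, at 27.6 CPM in d/d and 18.0 CPM in f/f (ratio 1.54). Pericyte-like cells were just short of the threshold, at 49.0 CPM in d/d and 32.9 CPM in f/f (ratio 1.49). Macrophage-like cells had 33.3 CPM (47 UMIs) in d/d and 19.3 CPM (13 UMIs) in f/f, with a ratio of 1.72 whose interval ran from 0.92 to 3.47.

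Slc7a11 encodes the light chain of the cystine and glutamate exchanger xCT, which brings in the cystine from which glutathione is made. It was close to a macrophage transcript in d/d: 142 CPM (200 UMIs) in d/d and 7.43 CPM (5 UMIs) in f/f macrophage-like cells, a ratio of 19.1 (interval 8.04 to 59.4). These cells held 66.7% of its d/d UMIs and 6.8% of its f/f UMIs, and 19.2% of thinned d/d against 0.86% of thinned f/f macrophage-like cells had a UMI (29.9% against 1.30% unthinned). Dendritic-like cells had 52.8 CPM (41 UMIs) in d/d and 5.15 CPM (3 UMIs) in f/f, a ratio of 10.3 with an interval from 3.28 to 51.8. Epithelium-like cells had 4.90 CPM (20 UMIs) in d/d and 13.4 CPM (29 UMIs) in f/f, and every other compared class was under 3 CPM in both libraries. Slc3a2, the heavy chain that pairs with it, was at 404 CPM in d/d and 111 CPM in f/f macrophage-like cells and at 251 CPM in d/d and 106 CPM in f/f dendritic-like cells.

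Txnrd1 encodes cytosolic thioredoxin reductase and Srxn1 sulfiredoxin, which restores over-oxidised peroxiredoxins. Txnrd1 was at 287 CPM (405 UMIs) in d/d and 55.0 CPM (37 UMIs) in f/f macrophage-like cells, a ratio of 5.22 (interval 3.72 to 7.52). Dendritic-like cells had 242 CPM in d/d and 49.7 CPM in f/f, a ratio of 4.87 (interval 3.28 to 7.47). In the other 5 classes Txnrd1 differed by between -0.20 and 0.25 on the log2 scale, for example 108 CPM in d/d and 98.3 CPM in f/f blood endothelium-like cells. Srxn1 was at 101 CPM (142 UMIs) in d/d and 13.4 CPM (9 UMIs) in f/f macrophage-like cells, a ratio of 7.52 (interval 3.85 to 16.8). Dendritic-like cells had 38.6 CPM (30 UMIs) in d/d and 3.43 CPM (2 UMIs) in f/f, a ratio of 11.3 with an interval from 2.86 to 97.3. Stroma-like cells had 15.0 CPM of Srxn1 in d/d and 16.3 CPM in f/f.

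Nqo1, a quinone reductase and a classical NRF2 target, stayed near the detection limit. It was between 0.71 and 4.83 CPM in d/d and between 0 and 10.3 CPM in f/f over the 7 classes and reached 50 UMIs in none of them. Smooth muscle-like cells had 3.56 CPM (31 UMIs) in d/d and 10.3 CPM (20 UMIs) in f/f. Its highest level was in the lymphatic endothelium-like cells, at 54.3 CPM (29 UMIs) in d/d and 71.0 CPM (14 UMIs) in f/f.

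The 6 genes lie on 5 chromosomes of mm10. Nqo1 is on chromosome 8, Gclm and Slc7a11 on chromosome 3, Gclc on chromosome 9, Txnrd1 on chromosome 10 and Srxn1 on chromosome 2. RefSeq windows were at hand for 5 of them and for both metallothioneins, but not for Hmox1 and Gclc. The antioxidant response element core TGACNNNGC was found in 12.4% of all windows, on either strand. Among the 6 genes it was in the windows of Gclm, Txnrd1 and Srxn1 and was not in those of Nqo1 and Slc7a11. Txnrd1 has 3 RefSeq starts and a match at 1 of them, beginning 92 bases before the start, and its 250 upstream bases (GRCm38.p6, chr10:82858956-82859205, plus strand) are shown because Txnrd1 had the most UMIs of the 6 genes in the myeloid cells. The capitals mark the match, which reads on the minus strand.
Txnrd1: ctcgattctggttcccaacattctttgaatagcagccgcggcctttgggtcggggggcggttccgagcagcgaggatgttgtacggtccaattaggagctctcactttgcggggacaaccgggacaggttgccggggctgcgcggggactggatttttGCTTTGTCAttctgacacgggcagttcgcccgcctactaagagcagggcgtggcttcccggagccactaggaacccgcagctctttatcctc

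Counted over the compared classes, a gene was tested where it had 50 or more UMIs in whichever library had the higher CPM, and called where the levels differed 1.5-fold or more. A gene can pass this minimum through the higher library alone, so the counts favour genes that differ and describe the genes tested, not all 9. Class totals differed between the libraries, so the minimum stood for different levels in d/d and f/f. Hmox1 and Mt1 were chosen as raised in d/d and Mt2 followed Mt1, so the counts are no test of the group. Outside the myeloid classes, the only calls of other members were Gclm in stroma-like cells and Gclc in pericyte-like and blood endothelium-like cells. In macrophage-like cells all 7 tested genes were called higher in d/d, where 26.2% of all tested genes were. In dendritic-like cells 4 of 4 were, beside 16.6% of all genes, in pericyte-like cells 4 of 6, beside 15.8%, and in blood endothelium-like cells 4 of 6, beside 11.4%. Stroma-like cells had 4 of 7, beside 14.1%, smooth muscle-like cells 3 of 6, beside 14.2%, and epithelium-like cells 1 of 6, beside 17.3%. Over all kept cells it was 5 of 9, beside 19.9%. No tested member was called lower in d/d in any class, where the share of all tested genes called lower was 21.5% in macrophage-like, 21.5% in dendritic-like, 21.9% in pericyte-like, 11% in blood endothelium-like, 20.4% in stroma-like, 11.1% in smooth muscle-like and 22.8% in epithelium-like cells, and 16.8% over all kept cells. The minimum left out 5 pairs of gene and class that were 1.5-fold or more lower in d/d, and others that were higher. Hmox1 was called in 7 of 7 classes, Mt1 and Mt2 in 6 of 7 each, Gclc in 3 of 6, Txnrd1 in 2 of 7, Gclm in 1 of 5, Srxn1 in 1 of 2 and Slc7a11 in 1 of 1.

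**Figure D3:**
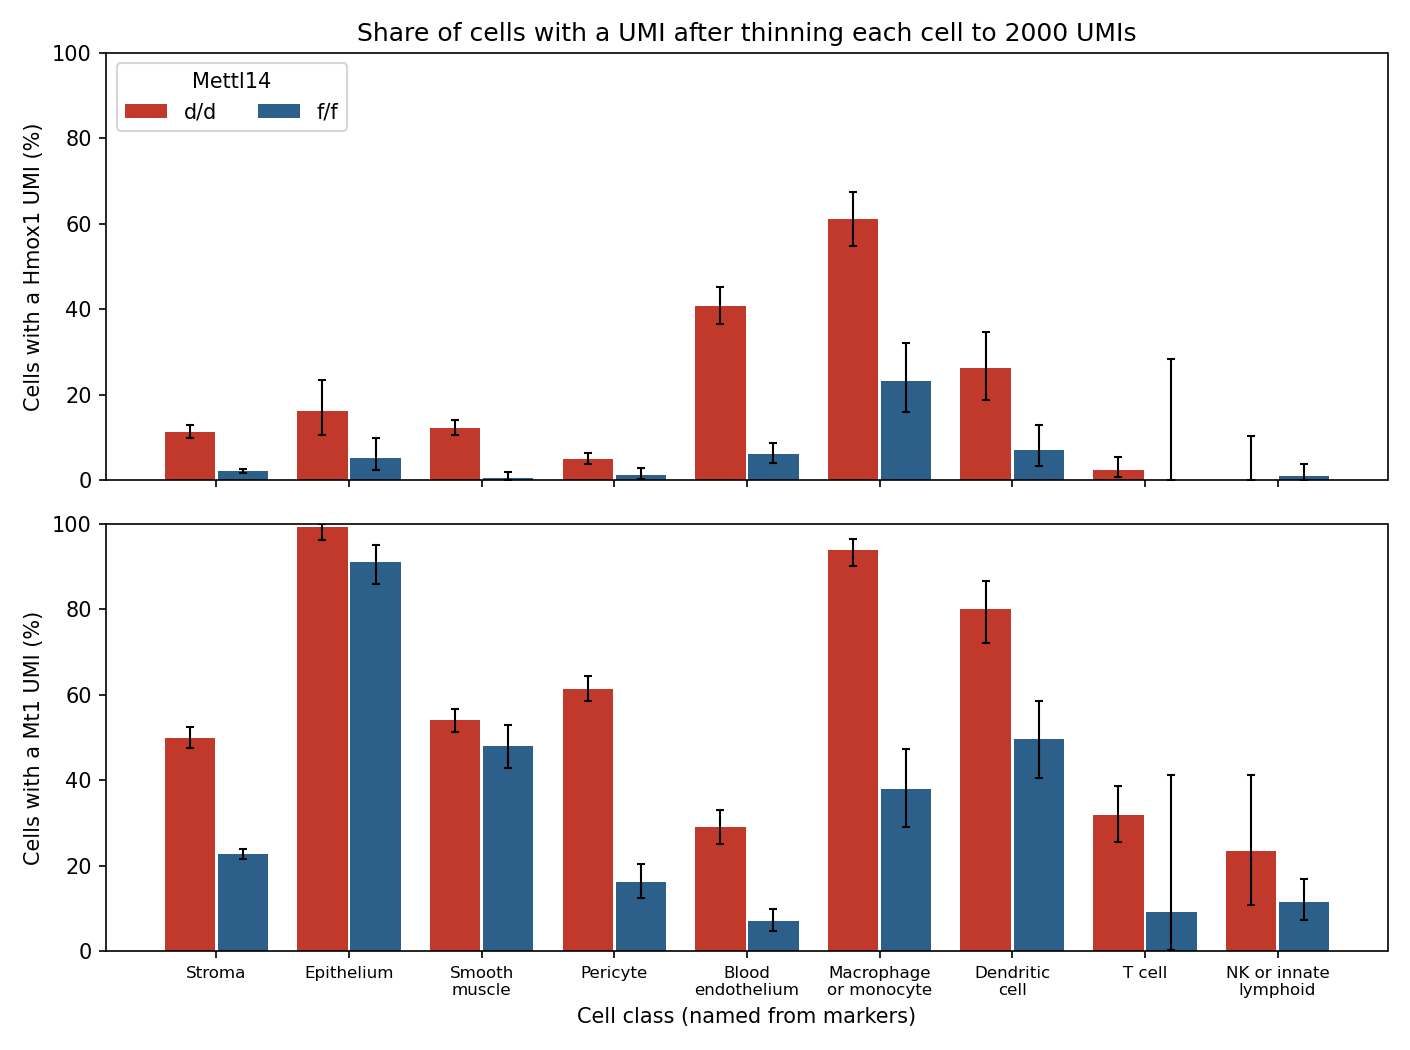
Share of cells with at least 1 UMI of Hmox1 and of Mt1 after thinning every cell to 2000 UMIs. Shares are by class and library, with exact binomial 95% intervals for counting error. Hmox1 was seen in 61.2% of d/d against 23.3% of f/f macrophage-like cells and in 40.8% of d/d against 6.12% of f/f blood endothelium-like cells.

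Macrophage-like cells differed in depth and purity between the libraries. Their median was 4362 UMIs in d/d and 2000 in f/f, and 115 of the 231 f/f cells were left out of the thinned shares as too shallow. The 8 stromal markers, all detected, summed to 922 CPM in d/d and 4884 CPM in f/f macrophage-like cells, which is 4.1% and 39.3% of their level in stroma-like cells of the same library. The 9 macrophage markers, all detected, summed to 17931 CPM in d/d and 11511 CPM in f/f. When levels were scaled to the macrophage marker UMIs instead of all UMIs, the ratio was 3.69 for Hmox1 (interval 2.98 to 4.62), 2.18 for Gclc, 3.35 for Txnrd1, 4.83 for Srxn1, 12.2 for Slc7a11, 6.62 for Mt1 and 9.50 for Mt2. That scaling was chosen after the values were seen. Each of the 7 ratios was smaller than before and still above 1.5, and Gclm was at 1.11.

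Members were also compared within the d/d library, between cells with and without an Hmox1 UMI. Of the thinned d/d blood endothelium-like cells, 45.8% of those with an Hmox1 UMI (98 of 214) and 17.4% of those without (54 of 310) had an Mt1 UMI. The same cells had Txnrd1 in 23.4% with and 11.6% without Hmox1, Gclc in 15.4% and 7.1%, and Gclm in 13.6% and 12.3%. In d/d macrophage-like cells, Gclc was in 25.3% with and 11.6% without Hmox1, Srxn1 in 22.0% and 12.6%, Slc7a11 in 21.3% and 15.8%, and Txnrd1 in 41.3% and 37.9%. In the endothelium the intervals of Mt1, Txnrd1 and Gclc did not overlap between the cells with and without Hmox1. In macrophage-like cells they overlapped for each of the 4 genes, but on fewer cells, 150 with and 95 without Hmox1. Overlap depends on the number of cells, so it gives no contrast between the classes. These are shares of cells of 1 library, given as a description.

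Of the regulators, Nfe2l2 differed by 1.5-fold or more in the myeloid classes among the 7. It was at 726 CPM in d/d and 202 CPM in f/f macrophage-like cells (log2 1.84) and at 799 CPM in d/d and 240 CPM in f/f dendritic-like cells (log2 1.73), with log2 differences between 0.20 and 0.55 elsewhere. Bach1, the repressor, was higher in d/d in all 7 classes, by between 0.84 and 1.13 on the log2 scale, for example 134 CPM in d/d and 61.2 CPM in f/f blood endothelium-like cells. Keap1 differed by between -0.95 and 0.45, had under 50 UMIs in both myeloid classes, and had 36.1 CPM in d/d and 53.9 CPM in f/f blood endothelium-like cells. RNA levels say nothing of NRF2 protein, which is controlled by degradation.

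**Figure D4:**
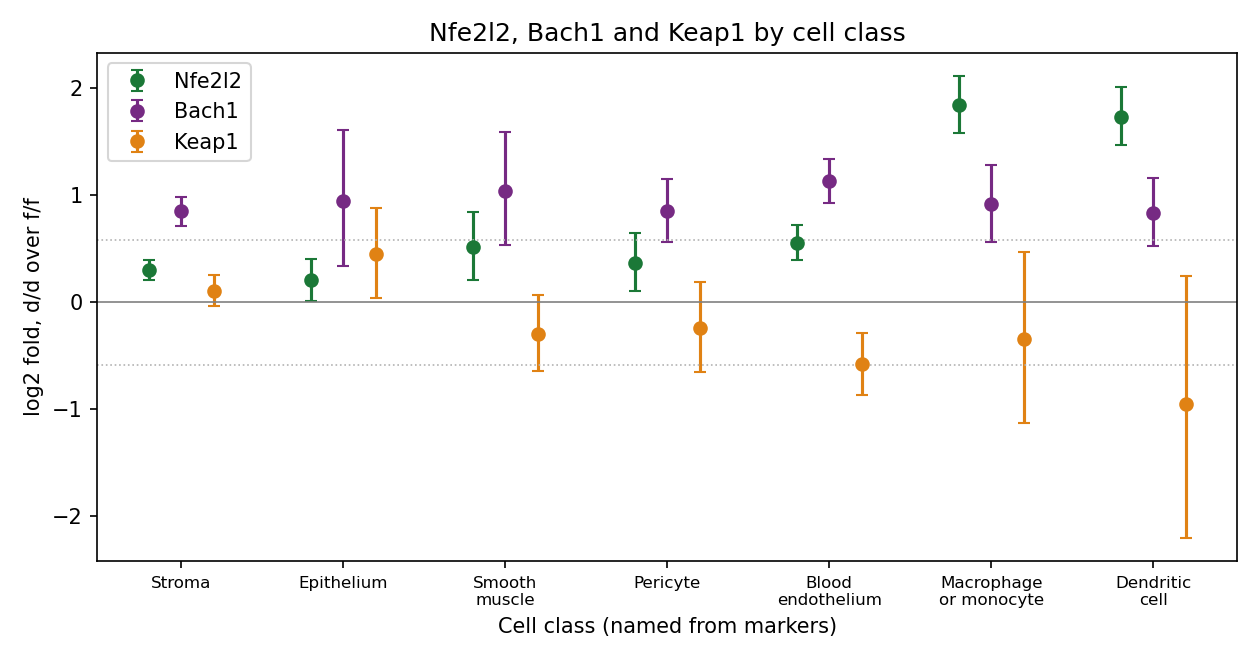
Log2 ratio of d/d to f/f for Nfe2l2, Bach1 and Keap1 by class. Bars are exact 95% intervals for counting error from 1 library per genotype, and dotted lines mark 1.5-fold. Nfe2l2 reached 726 CPM in d/d against 202 CPM in f/f macrophage-like cells, and Bach1 was higher in d/d in all 7 classes.

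Of the list of 12 NRF2 regulators and partners, 5 of the 8 measured were called higher in d/d macrophage-like cells and 0 lower, and in dendritic-like cells 6 of 7 and 0. In the other 5 classes between 4 and 5 were higher and between 0 and 2 lower, of 10 to 12 measured. For this and the following lists, the share of all tested genes called higher was 26.2% in macrophage-like, 16.6% in dendritic-like and between 11.4% and 17.3% in the other 5 classes, and the share called lower between 11% and 22.8%. Sqstm1, encoding the adaptor p62 that sequesters KEAP1, was at 847 CPM in d/d and 161 CPM in f/f macrophage-like cells and at 249 CPM in d/d and 86.5 CPM in f/f blood endothelium-like cells. Maff, a small MAF partner, was at 205 CPM in d/d and 7.4 CPM in f/f macrophage-like cells. The median log2 difference of the list was between -0.01 and 1.38 over the 7 classes. Mafk, another small MAF partner, was at 191 CPM in d/d and 34.3 CPM in f/f pericyte-like cells.

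Further genes linked to NRF2 went both ways. Of 34 further antioxidant and detoxification genes, those called higher and lower in d/d numbered 4 and 4 of 28 measured in stroma-like, 8 and 6 of 25 in epithelium-like, 1 and 3 of 19 in smooth muscle-like, 2 and 9 of 21 in pericyte-like and 1 and 4 of 23 in blood endothelium-like cells. They numbered 4 and 1 of 15 in macrophage-like and 1 and 3 of 9 in dendritic-like cells. The list's median log2 difference was between -0.52 and 0.12 over the 7 classes, beside -0.16 to 0.10 for all genes. Those called higher in macrophage-like cells included Txn1, the thioredoxin that Txnrd1 reduces, at 563 CPM in d/d and 343 CPM in f/f, and Prdx1, a peroxiredoxin, at 1347 CPM in d/d and 847 CPM in f/f. No companion list was rescaled to the macrophage marker UMIs, a scaling that took the Gclm ratio in these cells from 1.72 to 1.11. Whether Txn1 and Prdx1 stay higher in d/d under that scaling was not tested. In epithelium-like cells the glutathione transferases Gstm2, at 314 CPM in d/d and 1491 CPM in f/f, and Gstp1, at 87.2 CPM in d/d and 271 CPM in f/f, were lower in d/d.

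Of the 16 heme and iron genes, 5 of 9 measured were called higher and 0 lower in d/d macrophage-like cells, beside 26.2% of all tested genes higher. Fth1, ferritin heavy chain, was at 18933 CPM in d/d and 6251 CPM in f/f, and Ftl1, the light chain, at 8785 CPM in d/d and 3610 CPM in f/f. In blood endothelium-like cells, where Hmox1 differed most, 4 of 13 were higher and 1 lower, among them Flvcr1, a heme exporter, at 19.96 CPM in d/d and 11.1 CPM in f/f, and Tfrc, the transferrin receptor, at 24.8 CPM in d/d and 9.8 CPM in f/f. Stroma-like cells had 4 higher and 0 lower of 14, smooth muscle-like cells 5 and 1 of 11, pericyte-like cells 2 and 1 of 12, epithelium-like cells 2 and 2 of 10, and dendritic-like cells 2 and 0 of 2. Median log2 differences of the list were between 0.11 and 0.96.

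Of 13 other metal-handling genes, Slc30a1, the zinc exporter that MTF1 is known to control together with the metallothioneins, was higher in d/d in 5 classes. It was at 85.0 CPM in d/d and 22.3 CPM in f/f macrophage-like cells, 94.1 CPM in d/d and 51.5 CPM in f/f blood endothelium-like cells, and 35.5 CPM in d/d and 10.6 CPM in f/f epithelium-like cells. In smooth muscle-like cells, where the metallothionein difference was small, Slc30a1 was at 36.5 CPM in d/d and 32.8 CPM in f/f. In epithelium-like cells it differed although Mt1 and Mt2 did not over the whole class. Its relation to the metallothionein values was not tested. The list as a whole had 0 to 3 genes higher and 0 to 5 lower per class, of 1 to 12 measured, with medians between -0.55 and 1.32 on the log2 scale.

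The 17 ATF4 targets were looked at because ATF4, the factor of the amino acid response, also drives Slc7a11. Higher and lower in d/d were 4 and 0 of 5 measured in macrophage-like, 3 and 0 of 4 in dendritic-like, 7 and 3 of 16 in blood endothelium-like, 5 and 5 of 14 in pericyte-like, 5 and 2 of 15 in stroma-like, 4 and 1 of 11 in smooth muscle-like and 3 and 3 of 11 in epithelium-like cells, with medians between -0.03 and 1.63 on the log2 scale. The 11 glucocorticoid targets, looked at because of the metallothioneins, were 6 and 1 of 8 in pericyte-like, 5 and 0 of 9 in blood endothelium-like, 4 and 2 of 7 in macrophage-like, 3 and 2 of 10 in smooth muscle-like, 2 and 3 of 10 in stroma-like, 2 and 6 of 9 in epithelium-like and 1 and 0 of 2 in dendritic-like cells, with medians between -1.46 and 0.91.

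Immediate early and heat shock genes, which are also known to be induced by enzymatic dissociation of tissue, were called higher in d/d in most classes. Of this list of 22, those higher in d/d were 21 of 22 measured in blood endothelium-like, 19 of 21 in stroma-like, 19 of 21 in pericyte-like, 17 of 22 in smooth muscle-like, 14 of 19 in macrophage-like, 6 of 22 in epithelium-like and 2 of 19 in dendritic-like cells, with 3 lower in epithelium-like, 2 lower in dendritic-like and 0 in the other classes. Their summed level was 27505 CPM in d/d and 9928 CPM in f/f blood endothelium-like cells, and 23363 CPM in d/d and 9763 CPM in f/f macrophage-like cells. The list's median log2 difference was between -0.06 and 2.14 over the 7 classes. In dendritic-like cells, where Hmox1 differed 10.2-fold, the summed level was 18905 CPM in d/d and 18510 CPM in f/f. In epithelium-like cells it was 17629 CPM in d/d and 13605 CPM in f/f, with Hmox1 differing 8.35-fold. The part of such a response in the values of the 9 genes was not tested.

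Across the 14 sums of the 7 classes in both libraries, the genes with the Hmox1 pattern closest by Pearson correlation were Sqstm1 (0.874), Zfand2a (0.871), Plk3 (0.864), Nsun6 (0.862) and Irf1 (0.845), of 10184 genes. The closest member was Slc7a11 at 0.586, followed by Txnrd1 at 0.547, Srxn1 at 0.475, Gclc at 0.419, Mt1 at 0.373, Mt2 at 0.271 and Gclm at 0.009. For Mt1 the closest were Mt2 (0.951), Zbtb7b (0.898), H3f3b (0.882), Areg (0.881) and Ern1 (0.875), and Gclc stood at 0.740. These values describe 14 sums that share 2 libraries.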

How the data were processed

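Whole uterus of gestational day 4 was measured by 10x Genomics single-cell 3' RNA sequencing, with 1 library per genotype. The deposited matrices hold counts of UMIs per gene and cell barcode as the authors' software wrote them. The genome build is mm10 and the counting tool Cell Ranger 3.0.1, per the submitters' processing notes, whereas the matrices name cellranger 6.0.1, per the file headers, and which of them made the counts was not settled. The lowest barcode had 500 UMIs. Reads from near-identical or overlapping genes are handled by that software and were not checked.

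Barcodes were kept with at least 1000 UMIs, 500 genes and at most 20% mitochondrial UMIs. Doublets were marked with Scrublet in scanpy 1.11.5 at 0.8% per 1000 barcodes, by rank, because the automatic threshold marked 400 d/d and 0 f/f barcodes. This removed 348 d/d and 515 f/f barcodes among those that passed. Both libraries were clustered together without batch correction (2000 variable genes, 30 components, 15 neighbours, Leiden resolution 1.0, leidenalg 0.10.2), and clusters were named from marker lists. Within each class, the UMIs of a gene were added up over the cells of a library and expressed as CPM of all UMIs of those cells. The summed total behind a class was between 583082 and 33648618 UMIs. Levels carry exact Poisson intervals, shares exact Clopper-Pearson intervals and ratios exact conditional binomial intervals, all at 95%, and all cover counting error only. With 1 library per genotype there is no test. A gene was tested where it had 50 or more UMIs in whichever library had the higher CPM, and called where the levels differed 1.5-fold or more. Shares were taken after thinning each cell to 2000 UMIs.

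The 9 genes, the 7 companion lists and the marker lists were chosen with earlier results of these data known. The dendritic-like class was split off after the data were seen. All 9 genes were compared in every class of at least 100 cells in both libraries, though not every value is printed in the text. Of each companion list, up to 4 genes per class were eligible for naming, those whose interval lay farthest from no change. The genes most like Hmox1 and Mt1 were taken by Pearson correlation of log2(CPM + 5) over the 14 sums, among genes reaching 20 CPM. Slc3a2 was named as the partner of Slc7a11, and the non-differing Slc30a1 value of smooth muscle-like cells was added after its values were seen.

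Promoter windows came from RefSeq (GRCm38.p6) and gene positions from the GENCODE vM21 annotation of GRCm38. Intervals were tested on simulated counts without change, with 2-fold and with 4-fold changes. For stroma-like cells (12085 genes) they held the true value for 95.6% of unchanged genes and 96.0% of those changed 2-fold. Of unchanged genes, 0.90% were called in stroma-like and 3.77% in macrophage-like cells. The counts were drawn from the Poisson model that the intervals assume, so spread between cells or libraries was not tested. Alternatives included TMM scaling with edgeR 4.0.16. Scripts ran in Python 3.11.15 with numpy 2.4.6, scipy 1.17.1 and pandas 2.3.3.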

Additional observations from a re-analysis of the deposited data

Results flagged for a closer look

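Barcodes with 500 to 1000 UMIs, which no comparison above uses, held the same 3 transcripts at raised levels in d/d. Hmox1 was at 393 CPM in the 300 d/d barcodes of this kind and at 70.7 CPM in the 547 f/f barcodes. Mt1 was at 874 CPM in d/d and 235 CPM in f/f, and Mt2 at 379 CPM in d/d and 139 CPM in f/f. Each d/d value was above the upper interval bound of its f/f value. Txnrd1 was at 87.8 CPM in d/d and 65.7 CPM in f/f, and Nqo1 at 0 of the d/d UMIs. Which cells these barcodes came from was not tested.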

How the results depend on the processing

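Over 15 alternatives, of which 3 were chosen after seeing the data, no value of the 9 genes that was called in d/d changed its direction. The number of tested members called higher was between 7 and 8 in macrophage-like, 3 and 5 in pericyte-like, 3 and 4 in stroma-like, 3 and 4 in blood endothelium-like and 4 and 5 over all cells, and 1 in epithelium-like cells under each of them. With no minimum of UMIs, 8 members were higher in dendritic-like cells instead of 4, and 5 pairs of gene and class were lower in d/d instead of 0: Nqo1 in smooth muscle-like and pericyte-like, Srxn1 in epithelium-like and pericyte-like and Slc7a11 in epithelium-like cells. At 2-fold, 1 member was higher in smooth muscle-like cells instead of 3, because Mt1 and Mt2 lay under it, and the calls of Gclc in 2 classes and of Gclm in stroma-like and all cells were lost. Gclc in blood endothelium-like cells fell to a log2 difference of 0.50 without cells that held a C1qa, C1qb, C1qc or Lyz2 UMI, and Gclm in stroma-like cells to 0.58 with doublets kept. Gclm in pericyte-like cells (log2 0.57, not called) was called under TMM scaling (0.81), with doublets kept (0.64), with each library clustered separately (0.59), with a minimum of 2000 UMIs per cell (0.62) and with totals without mitochondrial and ribosomal genes (0.61). TMM scaling moved the median of all genes by 0.36 in macrophage-like, 0.38 in dendritic-like, 0.24 in pericyte-like, 0.20 in epithelium-like and 0.14 in smooth muscle-like cells. Hmox1 and Mt2 were in a larger share of d/d cells in 7 of 7 classes at 1000, 2000 and 4000 UMIs per cell, and Mt1 in 7, 7 and 6. Depth limits Nqo1 in every class, Gclm in the myeloid cells, Slc7a11 outside macrophage-like cells and Srxn1 outside stroma-like and macrophage-like cells. No paired analysis was possible because each genotype has 1 library.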
